A study of Homo sapiens with 6 samples.

Results

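The genes described are 8 transcription factors of pancreatic ductal, progenitor and classical-subtype identity: GATA6, HNF4A, HNF4G, FOXA1, FOXA2, PDX1, SOX9 and KLF5. They were taken by gene name from a table of 60612 genes, and all 8 names matched 1 row each. The cells were PANC-1, an established human line from a ductal pancreatic carcinoma. Poly(A) RNA was sequenced in 3 libraries of cells given 50 µM D(+)-raffinose pentahydrate, a plant trisaccharide, for 24 h, and in 3 libraries of cells whose labels name no compound. For the untreated libraries no vehicle and no time are named. Separate cultures are not stated for the libraries of either group, so a p-value here reflects library-to-library spread that could be technical only. All 6 come from 1 cell line.

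These factors act at successive steps of foregut and pancreas development. FOXA1 and FOXA2 are forkhead proteins that can bind closed chromatin and open it for other factors, and GATA6, a zinc finger factor, works beside them in endoderm. PDX1, a homeodomain factor, marks the pancreatic bud, and SOX9, an HMG-box factor, maintains its progenitors and later the ducts. HNF4A and HNF4G are nuclear receptors of liver, gut and pancreas, and KLF5 is a zinc finger factor of epithelial cells. In pancreatic carcinoma, high GATA6 and HNF4A are features of tumours called classical, which keep more epithelial differentiation than those called basal-like.

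Libraries held between 62756117 and 63553897 counts with raffinose and between 59723420 and 66063664 without it. Counts of 4 and 8 were far more frequent than their neighbours, so 1 read pair appears to add 4 to a value. A count of 12 is then about 3 read pairs, which is taken here as the limit that a count of 0 allows. It corresponds to 0.186 to 0.203 CPM (the count scaled to library size after TMM normalisation) in a library, and covers counting error only. FPKM, which divides by gene length, is used below to compare levels between genes, and CPM to compare groups.

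The 8 factors fell into an expressed trio and 5 genes under 1 FPKM in every library. SOX9 had the highest mean over the 6 libraries, 12.3 FPKM, followed by FOXA2 with 7.16 FPKM and KLF5 with 5.30 FPKM. GATA6 averaged 0.262 FPKM, FOXA1 0.255 FPKM, PDX1 0.066 FPKM and HNF4A 0.0106 FPKM. HNF4G had a count of 0 in all 6 libraries and is listed at 0.0001 FPKM, the value the table gives to genes without reads. Neighbours in this order were not all separated. The ranges over libraries overlapped between FOXA2 (1.38 to 11.1 FPKM) and KLF5 (4.97 to 5.70 FPKM), between GATA6 and FOXA1, between FOXA1 and PDX1, and between PDX1 and HNF4A. The lowest SOX9 library, at 11.2 FPKM, lay just above the highest FOXA2 library. KLF5 and GATA6 were far apart, since the highest GATA6 library reached 0.407 FPKM.

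**Figure D1:**
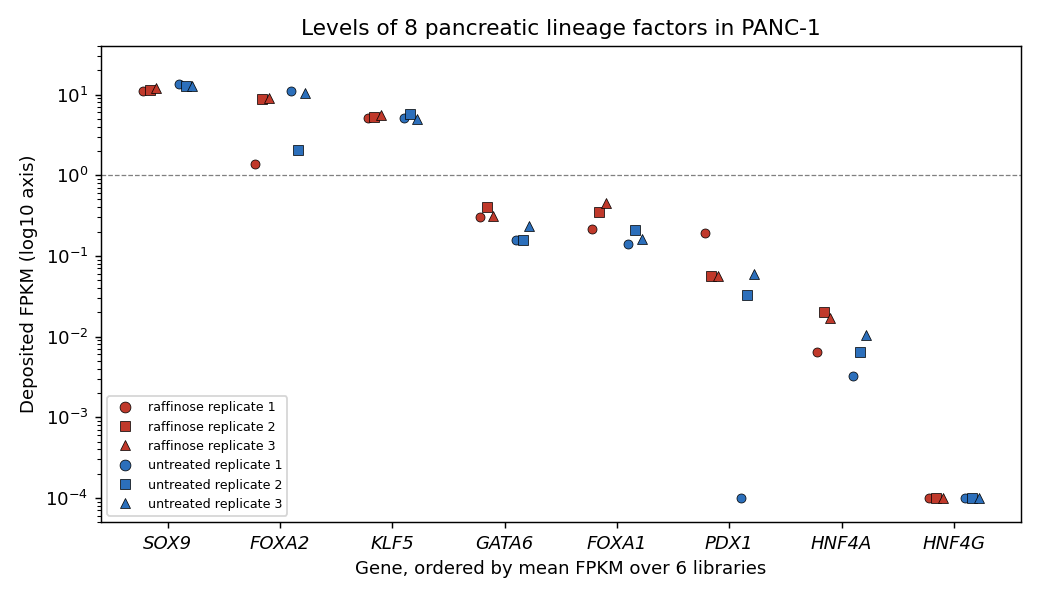
Deposited FPKM of each factor on a log10 axis, with 3 raffinose libraries (red) left of 3 untreated ones (blue) and genes ordered by their mean. SOX9, FOXA2 and KLF5 lie above 1 FPKM (dashed line) in every library, the other 5 lie below it, and values at 0.0001 are genes listed without reads.

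No factor passed the test between groups. By edgeR's quasi-likelihood test with Benjamini-Hochberg adjustment over 18863 genes, 0 of the 6 factors with enough counts were called, where 0.122% of all tested genes were called (0.0371% higher and 0.0848% lower with raffinose). DESeq2 also called 0 of them, where it called 3.51% of tested genes, and it gave no adjusted p for PDX1. At an unadjusted p under 0.05, 3 of the 6 (GATA6, SOX9 and FOXA1) stood beside 13.3% of all genes. The 3 raffinose libraries were all above or all below the 3 untreated ones in CPM for 2 of the 6, GATA6 above and SOX9 below, beside 21.5% of all tested genes. The 6 had 3 positive and 3 negative log2 fold changes and a median of 0.43, against 0.01 over all tested genes. The positive ones were those of GATA6, FOXA1 and PDX1, all under 1 FPKM. With an edgeR filter at FPKM 1, which kept SOX9, FOXA2 and KLF5, 1 was positive and 2 negative, with a median of -0.20. With 1 library left out, the median over the 6 factors ranged from 0.33 to 0.47. The 0.47 came without raffinose replicate 1, with 5 positive and 1 negative, as FOXA2 (0.14) and KLF5 (0.0193) turned positive. That fit was named after its values were seen. HNF4A and HNF4G did not reach the minimum count of 10 in enough libraries and were not tested.

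**Figure D2:**
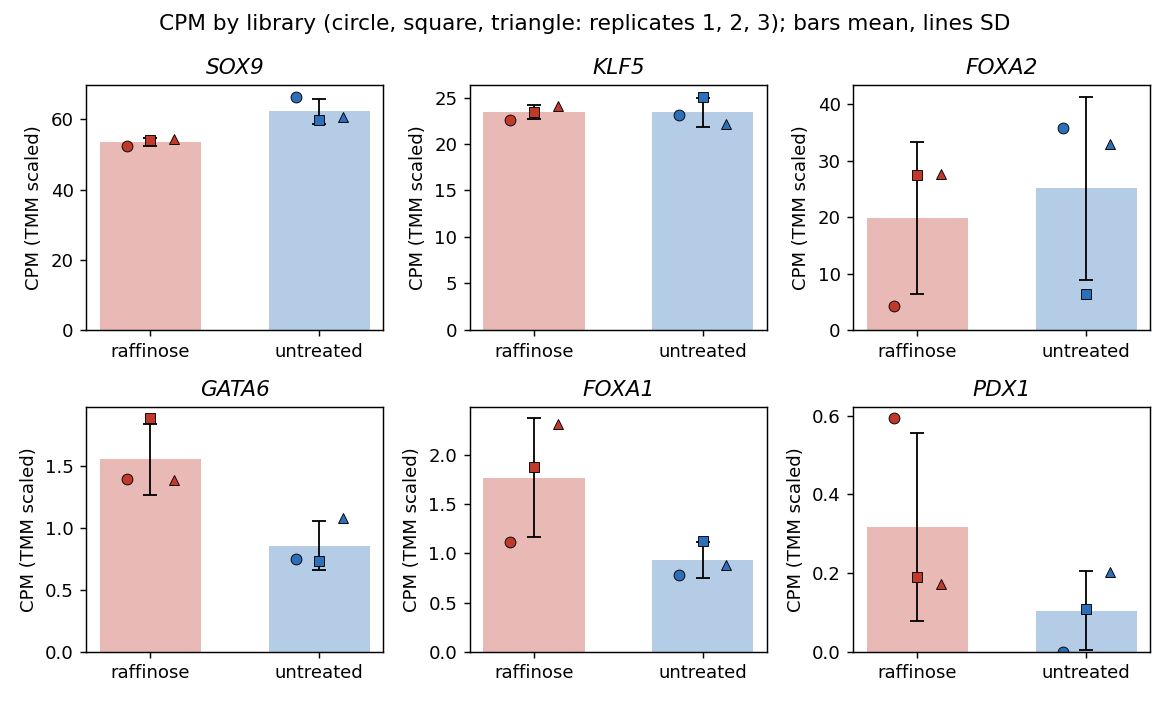
CPM of the 6 tested factors in 3 raffinose (red, left) and 3 untreated (blue, right) libraries. Bars are group means, lines are SD, and circles, squares and triangles are replicates 1, 2 and 3. The groups are apart for SOX9 and GATA6, and FOXA2 has 1 low library in each group.

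SOX9, which keeps duct and progenitor identity, was the most abundant of the factors and the least variable within each group, while KLF5 varied less over all 6 libraries. It lies on chromosome 17 (72121020 to 72126416, plus strand; ENSG00000125398), and the table gives it 1 transcript. Its level was 52.3, 54.2 and 54.4 CPM in raffinose replicates 1, 2 and 3, against 66.5, 59.8 and 60.6 CPM in untreated replicates 1, 2 and 3. Every raffinose library was thus below every untreated one, by a small margin. The means were 53.6 ± 1.17 CPM with raffinose and 62.3 ± 3.63 CPM without it (SD, n = 3 each). The log2 fold change was -0.22 (SE 0.07, 95% interval -0.38 to -0.06, edgeR adjusted p = 0.270), and the interval is not adjusted for the number of genes. SOX9-AS1, a noncoding gene that spans SOX9 on the opposite strand and was named after its values were seen, had counts of 31 to 42 with raffinose and 29 to 76 without it. Whether the counting used the strand is not given in the sources used here, so the reads of the pair cannot be told apart where they overlap. SOX9 counts ranged from 3349 to 4268.

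KLF5, an epithelial zinc finger factor, had nearly equal means in both groups. It lies on chromosome 13 (73054976 to 73077541, plus strand; ENSG00000102554). The libraries had 22.6, 23.4 and 24.1 CPM with raffinose, against 23.1, 25.1 and 22.1 CPM untreated. The groups overlapped, and the means were 23.4 ± 0.746 and 23.4 ± 1.56 CPM in raffinose and untreated libraries (SD, n = 3 each). The log2 fold change was -0.00365 (SE 0.08, edgeR adjusted p = 0.993), with a 95% interval of -0.20 to 0.19. Its sign turned to positive without raffinose replicate 1 (0.0193) and without untreated replicate 2 (0.0499). In FPKM, SOX9 exceeded KLF5 by 2.11 to 2.17 times in raffinose libraries and by 2.23 to 2.70 times in untreated ones.

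FOXA2, the forkhead factor of endoderm, ducts and islets, was split within each group rather than between groups. It lies on chromosome 20 (22581005 to 22585455, minus strand; ENSG00000125798), with 2 transcripts in the table. It had 4.28, 27.5 and 27.7 CPM in raffinose replicates 1, 2 and 3, against 35.8, 6.36 and 33.0 CPM in untreated replicates 1, 2 and 3. Raffinose replicate 1 and untreated replicate 2 were low, and the other 4 libraries were high in both groups. The highest library exceeded the lowest by 6.49 times with raffinose and by 5.64 times without it. The means of 19.8 ± 13.5 and 25.1 ± 16.3 CPM (SD, n = 3 each) for raffinose and untreated libraries therefore describe no single library well.

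The FOXA2 log2 fold change was -0.34 (SE 0.83, 95% interval -2.32 to 1.65, edgeR adjusted p = 0.898), so a change of several fold in either direction lies within the interval. It was 0.14 without raffinose replicate 1, 0.01 without untreated replicate 1 and -0.79 without untreated replicate 2. With both low libraries left out, a fit chosen after seeing the data, it was -0.32 (edgeR adjusted p = 0.585). The FOXA2 counts of 274 in raffinose replicate 1 and 410 in untreated replicate 2 are far above the limit of 12 counts.

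The other expressed factors did not show this split. SOX9 and KLF5 stayed between 52.3 and 66.5 CPM and between 22.1 and 25.1 CPM over all 6 libraries. LINC00261, a long noncoding RNA gene that lies next to FOXA2 on the same strand and was named after its values were seen, had 7.04, 7.93 and 7.19 CPM with raffinose, against 8.72, 9.58 and 8.90 CPM untreated. The FOXA2-low libraries were at opposite ends of its range, raffinose replicate 1 lowest and untreated replicate 2 highest, and its whole range was narrow beside that of FOXA2. Its log2 fold change was -0.30 (SE 0.11, edgeR adjusted p = 0.322).

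The FOXA2 split was looked for in other genes. Of 12096 tested genes with a mean count of at least 200, 71 ranged at least 4 times within both groups, FOXA2 among them. FOXA2, STX16 and THAP6, 3 genes in all, were at least 2 times lower in raffinose replicate 1 and untreated replicate 2 than in each of the other 4 libraries. STX16, a syntaxin of vesicle fusion, had 21.5, 56.8 and 68.5 CPM with raffinose, against 57.1, 22.3 and 65.4 CPM untreated. THAP6, a THAP-domain gene, had 4.73, 13.4 and 15.0 CPM with raffinose, against 11.9, 4.90 and 13.6 CPM untreated. STX16 and THAP6 were chosen after their values were seen. STX16 is also on chromosome 20 (58651253 to 58679526) and THAP6 on chromosome 4 (75513946 to 75544662). The cause of this split was not tested.

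**Figure D3:**
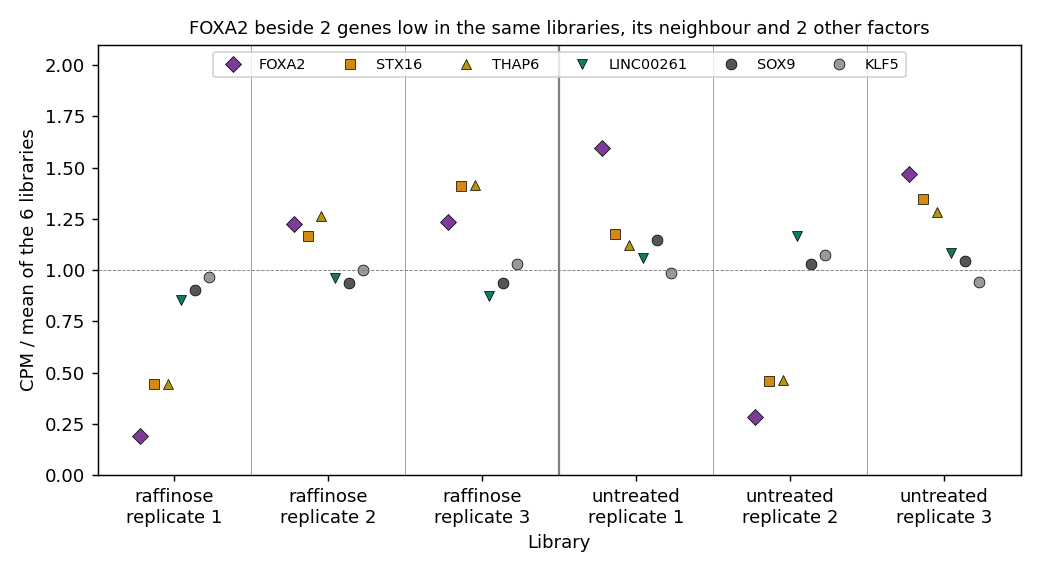
CPM of each gene in each library divided by its mean over the 6 libraries (dashed line at 1), with raffinose libraries on the left. FOXA2, STX16 and THAP6 are low in raffinose replicate 1 and untreated replicate 2, while LINC00261, SOX9 and KLF5 stay closer to 1 there.

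GATA6 and FOXA1, the zinc finger and forkhead factors of the classical programme, were low in every library, with positive log2 fold changes that did not pass the test. GATA6 lies on chromosome 18 (22169589 to 22202528, plus strand; ENSG00000141448) and FOXA1 on chromosome 14 (37589552 to 37595249, minus strand; ENSG00000129514). Their RefSeq promoter windows (GRCh38.p14, 250 bases before to 50 after the annotated start, gene strand) are shown because their estimates were of like size and sign. The windows are chr18:22169339-22169638 (plus strand) and chr14:37595200-37595499 (minus strand), and their starts match those of the table. Capitals mark matches on either strand to 5 motifs: TGTTTNC for forkhead factors, NGATAA for GATA factors, AACAAT for SOX factors, CAAAGTCC for HNF4 and GGGCGGG, the GC box that KLF and SP factors recognise.
GATA6: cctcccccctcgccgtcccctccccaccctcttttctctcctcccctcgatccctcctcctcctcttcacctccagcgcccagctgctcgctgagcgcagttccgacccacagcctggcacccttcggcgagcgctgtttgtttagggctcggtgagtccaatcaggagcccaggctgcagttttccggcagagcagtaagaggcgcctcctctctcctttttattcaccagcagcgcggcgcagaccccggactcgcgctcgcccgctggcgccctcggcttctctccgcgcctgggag
FOXA1: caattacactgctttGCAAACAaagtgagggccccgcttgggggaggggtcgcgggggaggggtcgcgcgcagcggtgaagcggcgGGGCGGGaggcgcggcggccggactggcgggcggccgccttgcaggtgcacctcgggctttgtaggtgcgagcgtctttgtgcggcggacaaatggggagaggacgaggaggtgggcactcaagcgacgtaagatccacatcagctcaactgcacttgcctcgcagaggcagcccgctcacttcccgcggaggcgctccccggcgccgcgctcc
KLF5 first window: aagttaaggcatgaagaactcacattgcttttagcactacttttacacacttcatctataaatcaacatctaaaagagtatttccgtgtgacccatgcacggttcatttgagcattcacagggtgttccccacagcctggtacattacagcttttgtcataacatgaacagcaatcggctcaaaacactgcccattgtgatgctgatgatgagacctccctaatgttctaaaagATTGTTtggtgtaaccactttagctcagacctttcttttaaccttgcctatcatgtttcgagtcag
KLF5 second window: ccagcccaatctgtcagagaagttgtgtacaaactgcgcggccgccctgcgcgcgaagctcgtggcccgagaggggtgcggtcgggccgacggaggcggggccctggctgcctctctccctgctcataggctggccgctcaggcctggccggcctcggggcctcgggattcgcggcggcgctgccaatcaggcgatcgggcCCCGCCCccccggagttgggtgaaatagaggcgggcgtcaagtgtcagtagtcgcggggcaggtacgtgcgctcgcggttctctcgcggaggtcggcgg

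The GATA6 window held none of these letters. The FOXA1 window held 1 forkhead match, GCAAACA, read on the opposite strand, and 1 GC box. Both KLF5 windows (plus strand) are shown for contrast because the KLF5 means were nearly equal. The first, chr13:73054726-73055025, has the table's KLF5 start and held 1 SOX match, ATTGTT, read on the opposite strand, and no GC box. The second, chr13:73058755-73059054, has a start further into the gene and held 1 GC box. Of 35116 RefSeq windows of this length, 18% held the forkhead letters, 22.7% the GATA letters, 10.1% the SOX letters, 1.2% the HNF4 letters and 33.1% the GC box. The matches of these windows do not overlap each other. A match describes the letters only, and neither its presence nor its absence shows whether a factor binds. The table held 6 windows for 4 of the 8 factors.

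GATA6 had counts of 89, 119 and 89 in raffinose replicates 1, 2 and 3, against 48, 47 and 64 in untreated replicates 1, 2 and 3. Its level was 1.39, 1.88 and 1.38 CPM with raffinose, against 0.747, 0.729 and 1.08 CPM untreated. All 3 raffinose libraries were above all 3 untreated ones, at 11.8 to 29.8 read pairs a library. The means were 1.55 ± 0.285 and 0.852 ± 0.198 CPM in raffinose and untreated libraries (SD, n = 3 each). The log2 fold change was 0.86 (SE 0.26, 95% interval 0.24 to 1.49), and the gene did not pass (edgeR adjusted p = 0.262, DESeq2 adjusted p = 0.129). GATA6-AS1, which overlaps the GATA6 start on the opposite strand and was named after its values were seen, had counts of 0, 23 and 4 with raffinose, against 0 in each untreated library.

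FOXA1 had counts of 72, 119 and 149 in raffinose replicates 1, 2 and 3, against 50, 73 and 52 in untreated replicates 1, 2 and 3. In CPM these were 1.12, 1.88 and 2.32 with raffinose, against 0.779, 1.13 and 0.878 untreated. Raffinose replicate 1 lay just under untreated replicate 2, so the groups overlapped. The log2 fold change was 0.93 (SE 0.32, 95% interval 0.16 to 1.70, edgeR adjusted p = 0.306), from means of 1.77 ± 0.603 and 0.930 ± 0.182 CPM in raffinose and untreated libraries. FOXA2 exceeded its paralogue FOXA1 in FPKM in every library, by 6.47, 24.8 and 20.5 times in raffinose replicates 1, 2 and 3 and by 79.0, 9.66 and 64.0 times in untreated replicates 1, 2 and 3. The smallest ratio in each group came from the library in which FOXA2 was low.

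PDX1, the homeodomain factor of the pancreatic bud and beta cells, was at the edge of detection. It lies on chromosome 13 (27920000 to 27926313, plus strand; ENSG00000139515). Its counts were 38, 12 and 11 in raffinose replicates 1, 2 and 3, against 0, 7 and 12 in untreated replicates 1, 2 and 3. Raffinose replicate 1 was the 1 library above 12 counts. The log2 fold change was 1.61 (SE 1.11, 95% interval -1.06 to 4.27, edgeR adjusted p = 0.592), and 0.80 without raffinose replicate 1. No difference in PDX1 was detectable at this depth.

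The nuclear receptors HNF4A and HNF4G, which drive liver and gut genes and mark the classical subtype, were at or under 12 counts in every library. HNF4A (chromosome 20, 44355700 to 44434596, plus strand; ENSG00000101076) had counts of 4, 12 and 10 with raffinose, against 2, 4 and 6 untreated, about 0.5 to 3.0 read pairs a library. HNF4G (chromosome 8, 75407914 to 75566834, plus strand; ENSG00000164749) had a count of 0 in all 6 libraries, which allows up to 12 counts in each. No fold change is given for either.

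**Figure D4:**
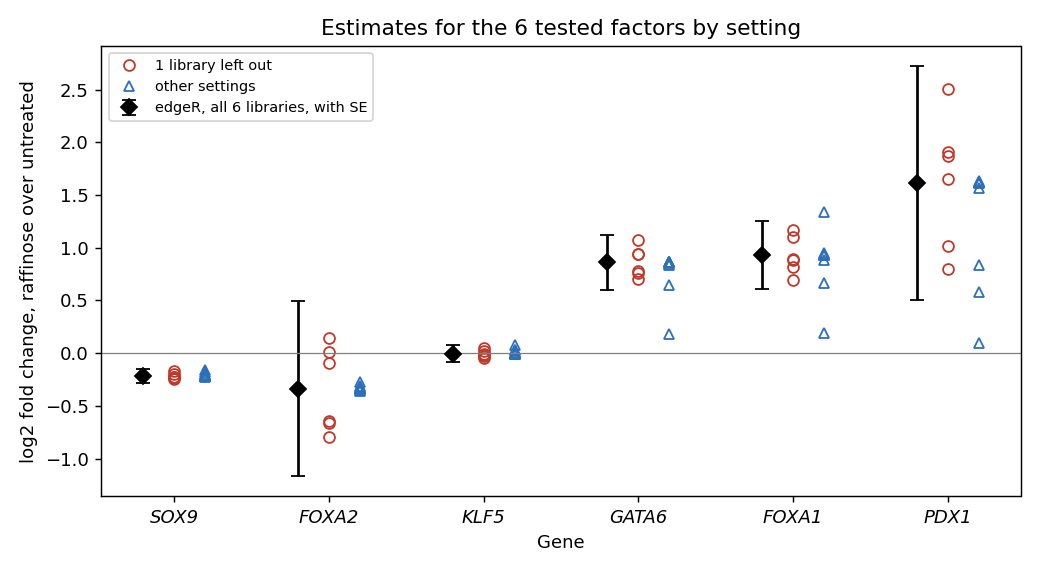
Log2 fold change, raffinose over untreated, of the 6 tested factors. Black diamonds are the edgeR estimate from 6 libraries with its SE, red circles leave out 1 library each and blue triangles are other tools, scalings and filters. SOX9 stays below 0 and GATA6, FOXA1 and PDX1 above 0 throughout, while FOXA2 and KLF5 fall on both sides.

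Of 14 close family members 7 reached a mean of 1 FPKM, all of them GATA or KLF genes. GATA4, a GATA factor of foregut and heart, averaged 7.45 ± 0.390 and 8.65 ± 0.352 FPKM in raffinose and untreated libraries (SD, n = 3 each), well above GATA6. GATA3, a factor of T cells and luminal epithelium, averaged 3.51 ± 0.373 and 4.27 ± 0.131 FPKM, and GATA2, a haematopoietic and endothelial factor, 3.15 ± 0.185 and 3.06 ± 0.387 FPKM. GATA4 (log2 fold change -0.25, edgeR adjusted p = 0.274) and GATA3 (-0.32, edgeR adjusted p = 0.269) had every raffinose library below every untreated one and did not pass. KLF6 averaged 15.8 ± 8.32 and 15.9 ± 1.24 FPKM and KLF4 4.79 ± 0.207 and 4.07 ± 1.57 FPKM in raffinose and untreated libraries. FOXA3, the third FOXA gene, averaged 0.0302 FPKM with raffinose and was listed at 0.0001 in each untreated library, and was not tested. CDX1 had a count of 0 in all libraries, and CDX2 averaged 0.357 FPKM over the 6 libraries. Of the 14 family genes 10 were tested, 5 with a positive and 5 with a negative log2 fold change and a median of -0.01, and by edgeR 0 were called (2 at an unadjusted p under 0.05, 0 by DESeq2).

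Among 29 other pancreatic factors, GATA4 again included, 15 were tested, 7 positive and 8 negative, with a median of -0.07. By edgeR 0 were called (2 at an unadjusted p under 0.05), and DESeq2 called 1, SOX4, lower. SOX4, an HMG-box factor of endocrine progenitors, was at 16.3, 17.0 and 16.6 CPM with raffinose, against 21.5, 22.2 and 20.8 CPM untreated. The groups were well apart, with a log2 fold change of -0.37 (SE 0.08, edgeR adjusted p = 0.152, DESeq2 adjusted p = 0.00371). YAP1, the Hippo pathway coactivator, averaged 27.0 ± 5.10 and 24.5 ± 5.93 FPKM and its partner TEAD1 8.94 ± 1.19 and 6.69 ± 3.42 FPKM in raffinose and untreated libraries. The Notch target HES1 averaged 8.31 ± 0.418 and 7.28 ± 0.263 FPKM. In this list 11 genes had a count of 0 in all libraries.

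Genes of the classical subtype were mostly low. Of 23, 1 reached a mean of 1 FPKM and 8 were tested, 4 positive and 4 negative, with a median of 0.03. The exception was AGR2, a disulfide isomerase of mucous cells, with 521, 539 and 501 CPM in raffinose replicates 1, 2 and 3, against 792, 710 and 724 CPM in untreated replicates 1, 2 and 3. Every raffinose library was below every untreated one, and the log2 fold change was -0.51 (SE 0.06, 95% interval -0.66 to -0.37). It missed the edgeR threshold (adjusted p = 0.059) and passed in DESeq2 (adjusted p = 6.18e-07), with an edgeR filter at FPKM 1 and in limma on log2 FPKM with a pseudocount of 1 or 0.1 (adjusted p = 0.0392 in each of these). TSPAN8, a tetraspanin of gut epithelium, averaged 0.652 ± 0.173 and 1.34 ± 0.228 CPM in raffinose and untreated libraries and did not pass (edgeR adjusted p = 0.233). By edgeR 0 of these genes were called (2 at an unadjusted p under 0.05, 1 by DESeq2).

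Basal-like genes were also sparse, with 4 of 23 at a mean of 1 FPKM or more. Of the 11 tested, 4 were positive and 7 negative, with a median of -0.37, and 0 were called by edgeR (3 at an unadjusted p under 0.05, 1 by DESeq2). AREG, an EGFR ligand, was the most abundant, at 36.9 ± 1.12 and 38.1 ± 0.741 FPKM in raffinose and untreated libraries. KRT7, a simple-epithelium keratin that is also in the ductal list, had a log2 fold change of -0.58 (SE 0.14, edgeR adjusted p = 0.199) and KRT15 one of -0.86 (SE 0.23, edgeR adjusted p = 0.211).

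Of 13 basal and mesenchymal transcription factors 10 were tested, 7 positive and 3 negative, with a median of 0.28, and 0 were called by edgeR (2 at an unadjusted p under 0.05, 0 by DESeq2). FOSL1, an AP-1 subunit, exceeded SOX9 in FPKM, with 67.5 ± 3.00 and 85.9 ± 11.8 FPKM in raffinose and untreated libraries. ZEB2, a repressor of epithelial genes, was at 3.56, 3.73 and 3.71 CPM with raffinose, against 2.71, 2.71 and 2.47 CPM untreated. These groups did not overlap, and ZEB2 did not pass (log2 fold change 0.48, SE 0.13, edgeR adjusted p = 0.231).

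Liver and gut genes that HNF4A or FOXA factors are known to activate were low, with 0 of 21 at a mean of 1 FPKM over the 6 libraries and 8 at a count of 0 throughout. Their summed level was 1.08 to 2.82 FPKM with raffinose and 1.60 to 1.81 FPKM without it. Of the 6 tested, 4 were positive and 2 negative, with a median of 0.62, and 0 were called by edgeR or by DESeq2 (0 at an unadjusted p under 0.05). Raffinose replicate 1, the lowest FOXA2 library, stood apart for APOB, SERPINA1 and TF. Among untreated libraries the order was not that of FOXA2. Untreated replicate 1, the highest in FOXA2, was the lowest of them for each of these 3 genes, and the FOXA2-low untreated replicate 2 was not. APOB, the structural protein of lipoproteins, had counts of 0, 236 and 283 in raffinose replicates 1, 2 and 3, against 33, 93 and 93 in untreated replicates 1, 2 and 3. SERPINA1, the antitrypsin gene, had 0, 291 and 278 with raffinose, against 72, 93 and 86 untreated. The transferrin gene TF had 4, 162 and 184 with raffinose, against 12, 54 and 73 untreated. For these 3 genes raffinose replicate 1 was thus the lowest of the 6 libraries and the other raffinose libraries were the highest. This order was not limited to the list. LYZ, a gene of the classical and leukocyte lists named after its values were seen, also had it. Its counts were 6, 49 and 47 with raffinose, against 23, 21 and 37 untreated. None of the other tested genes of the list, APOM, LGALS4 and CDH17, shared the whole pattern. For APOM and CDH17 raffinose replicate 1 was also the lowest library, but the other raffinose libraries were not both the highest. CDH17 had counts of 0, 19 and 12 with raffinose, against 7, 13 and 11 untreated. APOM had every raffinose library below every untreated one in CPM (log2 fold change -0.31, edgeR adjusted p = 0.558). LGALS4 had an estimate of 0.09 (SE 0.43, 95% interval -0.95 to 1.14, edgeR adjusted p = 0.955). CDH17 had one of -0.03 (SE 1.1, 95% interval -2.67 to 2.61, edgeR adjusted p = 0.996). Both intervals are wide, so these values do not show that either gene was unchanged. Without raffinose replicate 1 the list's median was 1.14, with 5 positive and 1 negative, as CDH17 turned positive (0.55, edgeR adjusted p = 0.813). In that fit SERPINA1 had a log2 fold change of 1.73 (edgeR adjusted p = 0.105). That fit was chosen after seeing the data. The median ranged from 0.26 without raffinose replicate 3 to 1.14 over the fits with 1 library left out, and was 0.33 without untreated replicate 1. The cause of the low values in raffinose replicate 1 was not tested.

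**Figure D5:**
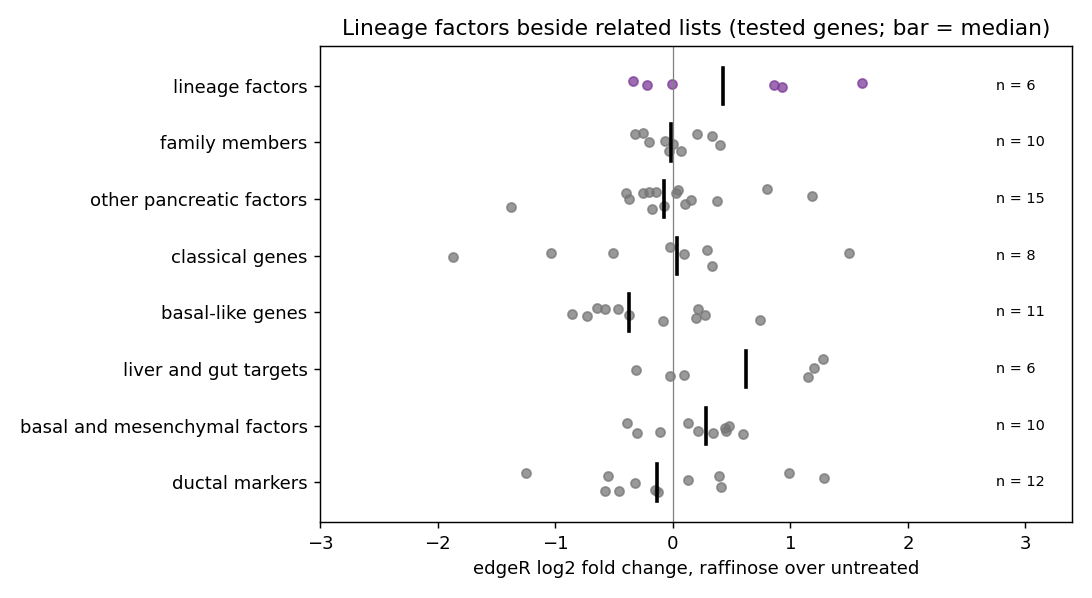
EdgeR log2 fold change of each tested gene, raffinose over untreated, for the lineage factors (purple, n = 6) and 7 related lists (grey), with the median as a black bar. The medians lie at 0.43 for the lineage factors, 0.62 for the liver and gut targets and between -0.37 and 0.28 for the other lists shown.

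The markers of the labelled cell type were mixed. In the ductal list KRT18 (389 ± 22.0 and 521 ± 31.1 FPKM) and KRT8 (275 ± 33.2 and 393 ± 47.2 FPKM in raffinose and untreated libraries) were high, while KRT19 averaged 0.158 and 0.119 FPKM and CFTR 0.00297 and 0.00337 FPKM. KRT19 and CFTR were named after their values were seen. Of 18 ductal markers 12 were tested, 5 positive and 7 negative, with a median of -0.14, and their summed level was 668 to 699 FPKM with raffinose and 865 to 1000 FPKM without it. With an edgeR filter at FPKM 1, 6 ductal markers were kept, 0 positive and 6 negative, with a median of -0.37. By edgeR 0 were called (4 at an unadjusted p under 0.05), and DESeq2 called KRT18, KRT8 and KRT7 lower, beside 3.51% of all tested genes called in either direction.

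Most markers of other cell types were low, with COL3A1 and CD68 as the largest exceptions. Of 17 acinar markers 0 were tested and 14 had a count of 0 in all libraries, PRSS1 and CPA1 among them. The summed level was 4.79 to 5.10 FPKM with raffinose and 4.93 to 5.51 FPKM without it for 14 endocrine markers, with INS and GCG at 0. It was 0.0412 to 0.0996 FPKM with raffinose and 0.0479 to 0.117 FPKM without it for 8 endothelial markers. For 11 fibroblast markers it was 44.8 to 47.5 FPKM with raffinose and 48.1 to 52.5 FPKM without it, most of it COL3A1, a fibrillar collagen, at 41.4 and 47.0 FPKM in raffinose and untreated libraries and so above SOX9, while PDGFRA and DCN were under 0.01 FPKM in both group means. For 12 leukocyte markers it was 7.44 to 9.98 FPKM with raffinose and 12.7 to 16.4 FPKM without it, most of it CD68, a lysosomal protein that averaged 11.1 FPKM over the 6 libraries, above FOXA2 and KLF5, with CD3E and MS4A1 at 0 and PTPRC at 0.00548 and 0.00528 FPKM in raffinose and untreated libraries. By edgeR 0 of the tested genes of these lists were called. COL1A1, a fibroblast marker averaging 3.43 FPKM, had every raffinose library above every untreated one in CPM, opposite to COL3A1. Its log2 fold change was 0.24 (SE 0.07, edgeR adjusted p = 0.242). The endocrine marker CHGB, averaging 1.21 FPKM, was also higher in every raffinose library (0.27, SE 0.14, edgeR adjusted p = 0.460). Acinar and endothelial lists had 0, the endocrine list 1, the fibroblast list 2 and the leukocyte list 1 at an unadjusted p under 0.05, and DESeq2 called SCG2, COL3A1 and CD68 lower. Their part in the values of the lineage factors was not tested.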

How the data were processed

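Libraries were dUTP-marked and read as pairs, per the labels' protocols. Tools listed in the submitters' processing notes, with no role given, are HISAT2 2.0.4, cutadapt 1.9, StringTie 1.3.4d, DESeq2 and edgeR. The genome build is not given in the sources used here. Per the file headers, the deposited table holds FPKM and a count, taken as an estimated count, for each gene in each library; how the authors made the counts is not stated. Of its gene identifiers 58394 are in GENCODE 29 (GRCh38), 84.6% with the same start. Coordinates are the table's, and sequences are RefSeq's (GRCh38.p14).

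Counts were tested with edgeR 4.0.16 in R 4.3.3 (filterByExpr with a minimum count of 10, 18863 genes, TMM, glmQLFit and glmQLFTest), called at an adjusted p under 0.05. SE is the estimate divided by the root of the F statistic. DESeq2 1.42.0 and limma 3.58.1 gave alternatives. The fits were tested on simulated counts. A script's rule named the 8 factors, the highest and smallest-p genes of each list, all family members and nearest profiles. Members and lists were chosen with earlier results of these data known. The common biological coefficient of variation was 27.1%.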

Additional observations from a re-analysis of the deposited data

How the results depend on the processing

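No factor was called under any of 16 alternatives, with 1 to 3 factors at an unadjusted p under 0.05 in each. Over all genes of these fits, 1564 to 2708 were under that threshold. GATA6, FOXA1 and PDX1 were not in the fit filtered at FPKM 1. SOX9 kept its negative sign (-0.244 to -0.164) in all alternatives. GATA6 (0.181 to 1.07), FOXA1 (0.188 to 1.34) and PDX1 (0.0925 to 2.51) kept their positive one in all alternatives that held them. The lowest values of GATA6, FOXA1 and PDX1 came from log2(FPKM + 1), where the added 1 shrinks low genes. FOXA2 ranged from -0.794 to 0.141 with 1 library left out, and KLF5 from -0.0443 to 0.0499. KLF5 was also positive with upper-quartile scaling (0.00212), the FPKM 1 filter (0.0117), limma on log2(FPKM + 1) (0.0294) or log2(FPKM + 0.1) (0.0345), and with raffinose replicate 1 and untreated replicate 2 both left out (0.0734); the cause was not tested.

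Over all genes, 7 higher and 16 lower became 15 and 27 with the FPKM 1 filter, where fewer genes were tested, 254 and 409 with DESeq2, and 1 and 0 with both libraries left out (831 lower at an unadjusted p under 0.05 in edgeR). Limma on log2(FPKM + 0.1) called 11 higher. With 1 library left out, 0 to 15 were higher and 4 to 12 lower; the 0 came without untreated replicate 3 (937 higher at an unadjusted p under 0.05). Of the other lists' 0 called genes, DESeq2 called 8, and the FPKM 1 filter and both limma fits 1 each, AGR2.

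With the replicate number as a block, 0 genes were called higher and 0 lower in edgeR (1932 at an unadjusted p under 0.05), and no factor was called. Deviations of libraries sharing a number had correlations of -0.01, -0.03 and 0.01, and for 0 of 6 libraries was the best match the one with the same number. No pairing by number was seen in these values. The check cannot show whether libraries sharing a number also shared a culture or a batch. Depth limits GATA6, FOXA1, PDX1, HNF4A and HNF4G, each at 37.2 read pairs a library or fewer.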

Other observations

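Among 6299 other tested genes with a mean of at least 5 FPKM, the profiles nearest to the 3 expressed factors were found by the root mean square difference of log2(FPKM + 1), scaled per gene to mean 0 and SD 1 over the 6 libraries. For SOX9 they were KCTD17 (0.114), a potassium channel tetramerisation domain gene, and the adhesion receptor ICAM1 (0.117), both with every raffinose library below every untreated one in CPM. ICAM1 was at 7.34, 7.48 and 7.78 FPKM in raffinose libraries, against 8.79, 8.11 and 8.16 FPKM untreated. For FOXA2 they were TMEM14C (0.102), a mitochondrial porphyrin transporter, and the G protein gamma subunit GNG10 (0.105). TMEM14C was at 30.4, 58.2 and 56.5 FPKM in raffinose replicates 1, 2 and 3, against 63.7, 31.6 and 58.5 FPKM in untreated replicates 1, 2 and 3, so it was low in the same 2 libraries as FOXA2. GNG10 was low there by less, at 28.2 and 28.7 FPKM against 33.6 to 34.0 FPKM in the other 4. For KLF5 they were the adiponectin receptor ADIPOR1 (0.213) and TMEM87A (0.288).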
